A study of Rattus norvegicus with 6 samples.

Results

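The genes described here encode the mitochondrial carriers and the subunits that bring proteins into mitochondria. They are the rows of the authors' gene table whose symbol begins with Slc25a, Timm or Tomm followed by a digit, leaving out Slc25a37 and Slc25a38. The rule found 59 of 17172 genes and loci, 38 carriers and 21 import genes. They were measured by poly(A) RNA sequencing of bone marrow cells of 6 ACI rats aged 6 to 8 weeks, 1 library per rat. The PHZ group of 3 rats received phenylhydrazine, a compound that damages red cells and causes haemolytic anaemia, at 100 mg/kg into the peritoneum. The PBS group of 3 rats received the same amount of phosphate-buffered saline, also into the peritoneum. Cells were taken from the hind legs 36 h after injection and enriched with a biotinylated antibody to c-kit, the stem cell factor receptor of haematopoietic stem cells and progenitors. By the labels, 2 females and 1 male made up each group.

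Mitochondria make few of their proteins, and nearly all others are translated in the cytosol and imported. Precursors enter through the TOM complex of the outer membrane. Those with a presequence pass on through the TIM23 complex, while carriers are escorted by the small TIM chaperones to the TIM22 complex, which inserts them into the inner membrane. The carriers of the SLC25 family then move nucleotides, phosphate, amino acids, carboxylates and cofactors across that membrane. In erythroid cells this traffic feeds haem synthesis, whose first and last steps lie inside the mitochondrion.

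Libraries held 13196249 to 19492793 expected counts. Kit stood at 12.9, 14.7 and 10.6 FPKM in PBS replicates 1, 2 and 3 and at 8.36, 10.5 and 15.5 FPKM in the PHZ replicates, so that the groups overlapped. Cd34 was listed at 0.07 to 0.66 FPKM and was too low to test. FPKM is the authors' level of fragments scaled to transcript length and library depth, and all levels here are on that scale. In 3 of the 6 libraries Y-linked transcripts went against the sex label (PBS replicates 1 and 2 and PHZ replicate 3). The main comparison therefore has no sex term. Labels were female, male and female for replicates 1, 2 and 3 of both groups. Y-linked levels in CPM (counts scaled to the library total) were 210, 0.0615 and 0 in the PBS replicates. In the PHZ replicates they were 0.0513, 137 and 162 CPM, so by these transcripts sex was not balanced between the groups. Marker genes of several cell types moved with treatment, where 8.99% of all tested genes rose and 4.17% fell (edgeR adjusted p under 0.05). Of 12 erythroid markers found, 7 rose, and of 13 proliferation markers 10 rose, with a summed level of 2950 to 3660 CPM in PBS and 5490 to 6330 CPM in PHZ. Of 9 B lineage markers 7 fell (584 to 727 CPM summed in PBS, 125 to 232 in PHZ), and of 9 T and NK markers 6 fell (328 to 544 and 205 to 233 CPM). Stem and progenitor markers had 2 falls among 6 tested, and stromal and endothelial markers 2 among 6, with a summed 623 CPM in PBS replicate 1 against at most 90.6 CPM in the other libraries. Summed erythroid marker levels overlapped between groups (97600 to 195000 CPM in PBS, 90100 to 214000 CPM in PHZ). That sum was mostly Hba1 and Hbb, as globin genes held 9.67 to 19.88% of counts in PBS and 8.95 to 20.85% in PHZ libraries. Gene by gene, 8 of the 12 did not overlap and were higher in PHZ, while Hba1, Hbb, Alas2 and Epor overlapped. Of 5 megakaryocyte markers tested 1 fell (245 to 284 CPM summed in PBS, 166 to 185 in PHZ). Neutrophil markers (12800 to 26900 and 5840 to 10900 CPM), monocyte and macrophage markers (1550 to 4350 and 1360 to 2200 CPM) and mast cell, basophil and eosinophil markers (9630 to 15300 and 5370 to 10600 CPM) had no calls. Of the markers found, none was at 0 in every library. Some listed markers were not found and were left out, so that 12 of 14 erythroid and 6 of 8 megakaryocyte markers entered. The part of these shifts in the results below was not tested, and in such bulk samples fewer cells of a type and less RNA per cell cannot be told apart.

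Most of the tested carrier and import genes, 38 of 52, had an estimate above 0 in PHZ against PBS, and all but a pair of the called ones differed by under 2-fold. An estimate above 0 was found for 6445 of all 13547 tested genes, and for 3569 of the 6033 with a mean of at least 10 FPKM. Of the 59 genes, 52 passed the expression filter, 12 of them rose, 1 fell and 39 were not called (edgeR quasi-likelihood test, adjusted p under 0.05 over all 13547 genes tested). Among all tested genes 13.2% were called, 8.99% higher and 4.17% lower in PHZ, while 23.1% of the tested members rose. The same shares of all tested genes stand behind the counts by role below. Among all tested genes with a mean of at least 10 FPKM, 16.0% rose. An unadjusted p under 0.05 was reached by 25 of the 52 and by 34.1% of all tested genes. Upper-quartile scaling split all calls as 951 higher and 668 lower and DESeq2 as 1941 and 1480, against 1218 and 565. The median log2 fold change was 0.45 over the tested members and -0.04 over all tested genes. The import genes had 7 rises among 20 tested and a median of 0.58. The carriers had 5 rises and 1 fall among 32 tested, with a median of 0.31. Values of the groups, as TMM-scaled CPM, did not overlap in 32 of the 52, 24 higher and 8 lower in PHZ, against 41.7% of all tested genes, 22.5% higher and 19.2% lower. The count of 13 called members was 21 with DESeq2 (20.1% of 17048 genes called) and 10 with no low-count filter (9.03% of 17165 genes). These 2 shares are over more genes than the main fit, as genes of low count were kept. Over the same 13547 genes the count was 9 with upper-quartile scaling (12%), 7 with the labelled sex as a covariate (6.85%) and 6 with limma (10.1%). It was 12 without PBS replicate 1 (12.7% of all genes called), 6 without PHZ replicate 1 (12.6%), 5 without PHZ replicate 3 (4.10%) and 1 without PHZ replicate 2 (1.91%). It was 0 without PBS replicate 2 and 0 without PBS replicate 3, fits in which 0% of all genes were called. In each of these fits 19 members had an unadjusted p under 0.05 in edgeR, beside 3325 and 3291 of all genes. When the 3 libraries at odds with the sex label were left out, 1 PBS and 2 PHZ libraries remained, so that the PHZ pair alone gave the spread. In that fit edgeR called 0 members (6 at an unadjusted p under 0.05), and their median log2 fold change was 0.50.

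**Figure D1:**
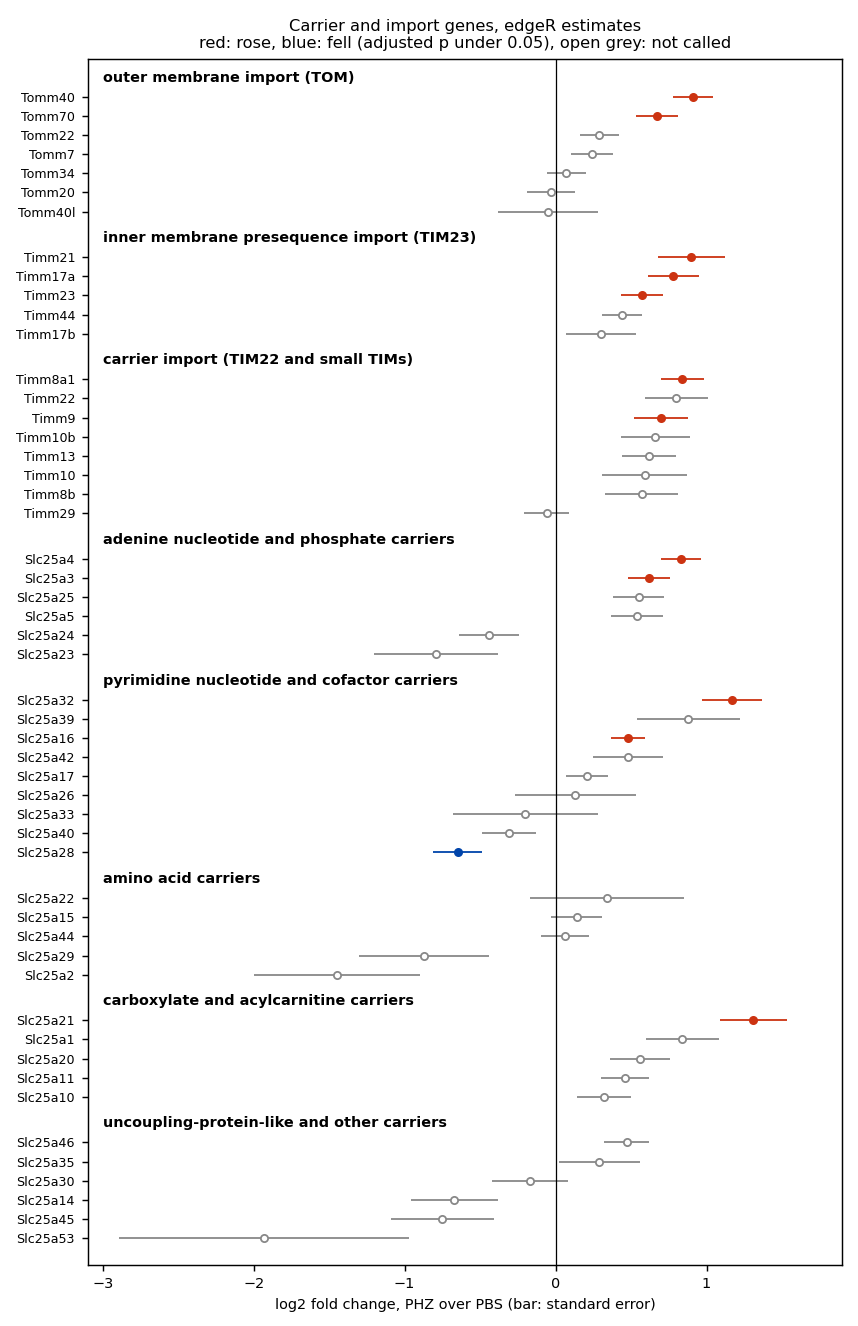
Log2 fold change of PHZ over PBS for 51 of the 52 tested genes, grouped by role, with the standard error as a bar. Red points rose and the blue point fell at an edgeR adjusted p under 0.05, and open grey points were not called; 37 of the estimates shown lie above 0 and 14 below.

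Of the 7 genes of the outer membrane (TOM) list the channel gene and the gene of the receptor for carriers rose, and the other 5 were not called. Tomm40, the channel, stood at 17.4, 18.7 and 16.9 FPKM in PBS replicates 1, 2 and 3 and at 36.4, 31.0 and 28.5 FPKM in the PHZ replicates. Every PHZ value was over every PBS value, a 1.88-fold rise (log2 0.91 ± 0.13 SE, edgeR adjusted p = 0.0187). It kept its call without PHZ replicate 2, when no other member was called. Tomm70, the receptor that binds carrier precursors and their cytosolic chaperones, had 14.7, 13.7 and 14.8 FPKM in PBS and 27.6, 18.5 and 20.5 FPKM in PHZ libraries, a 1.59-fold rise (edgeR adjusted p = 0.0312). PHZ replicate 1 was the highest, and the lowest PHZ value was still over the PBS values. Tomm20, the receptor for presequences, had 47.6 ± 3.27 FPKM in PBS and 45.6 ± 11.5 FPKM in PHZ libraries (SD, n = 3), with a log2 fold change of -0.03 ± 0.16 (SE). Its groups overlapped.

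Other genes of this list were not called. Tomm7, a small subunit that modulates the assembly of the complex, was the most abundant import gene, at 123, 111 and 95.4 FPKM in PBS and 140, 122 and 109 FPKM in PHZ libraries (edgeR adjusted p = 0.269). Tomm22, the central receptor, had 76.2 ± 3.60 and 89.2 ± 8.09 FPKM (SD, n = 3). Tomm34, a cytosolic cochaperone, had 23.7 ± 1.39 and 24.3 ± 2.65 FPKM. The channel's paralog Tomm40l was low, at 2.33 ± 0.163 FPKM in PBS and 2.16 ± 0.384 FPKM in PHZ libraries. Together 2 of 7 genes of the outer membrane list rose and none fell, with a median log2 fold change of 0.24.

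At the inner membrane 3 of 5 genes of the presequence route rose, with none that fell and a median log2 fold change of 0.57. Timm23, the channel core, had 64.9, 55.5 and 50.0 FPKM in PBS and 95.8, 77.2 and 71.3 FPKM in PHZ libraries, a 1.49-fold rise (edgeR adjusted p = 0.0429). Timm17a, which pairs with Timm23, had 9.56, 7.96 and 6.66 FPKM in PBS and 14.3, 12.8 and 11.5 FPKM in PHZ libraries, 1.71-fold higher (edgeR adjusted p = 0.035). In Timm23 and Timm17a replicate 1 was the highest library of both groups, and the groups did not overlap. Timm21, which links the TIM23 complex to the outer membrane and to respiratory chain assembly, had close values in PHZ libraries. It had 8.74, 8.92 and 8.94 FPKM there and 6.13, 4.09 and 4.67 FPKM in PBS libraries, 1.86-fold higher (edgeR adjusted p = 0.0461). Timm44, the anchor of the import motor, had 16.6 ± 1.32 FPKM in PBS and 21.7 ± 3.85 FPKM in PHZ (SD, n = 3), with no overlap and no call (edgeR adjusted p = 0.063). Timm17b, the more abundant paralog of Timm17a, had 49.2 ± 4.46 and 57.6 ± 11.2 FPKM and overlapping groups (edgeR adjusted p = 0.383).

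On the carrier route 2 of 8 tested genes rose, both small TIM chaperones of the intermembrane space, and 7 of the 8 had a positive estimate. The median log2 fold change was 0.64. Timm8a1, the rat counterpart of the human deafness-dystonia gene, had 15.1, 15.5 and 14.4 FPKM in PBS and 31.8, 24.1 and 22.5 FPKM in PHZ libraries. Its PBS values were close together, and the PHZ values were all higher, by 1.80-fold (log2 0.84 ± 0.14 SE, edgeR adjusted p = 0.0224). Timm9 had 13.3, 13.8 and 11.3 FPKM in PBS and 25.7, 16.9 and 17.4 FPKM in PHZ libraries, 1.63-fold higher (edgeR adjusted p = 0.0471). Its partner in the chaperone hexamer, Timm10, had 7.23 ± 1.53 and 10.3 ± 3.30 FPKM (SD, n = 3) and overlapping groups (edgeR adjusted p = 0.191). Timm13, the partner of Timm8a1 and the most abundant gene of this route, had 31.5, 41.9 and 33.0 FPKM in PBS and 51.5, 57.1 and 47.8 FPKM in PHZ libraries (edgeR adjusted p = 0.0657). Its groups did not overlap.

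The channel of the carrier route itself was just outside the threshold. Timm22 had 7.06, 5.78 and 6.02 FPKM in PBS and 13.8, 9.98 and 7.95 FPKM in PHZ libraries, with no overlap and an estimate of 1.74-fold (edgeR adjusted p = 0.0542). Timm10b, the small TIM bound to that complex, had 8.81 ± 1.10 and 13.5 ± 2.70 FPKM, and Timm8b 25.6 ± 6.86 and 36.6 ± 8.14 FPKM (SD, n = 3). Timm29, another subunit of the complex, had 7.23 ± 0.774 FPKM in PBS and 6.70 ± 0.235 FPKM in PHZ libraries, with a log2 fold change of -0.06. Timm8a2 did not pass the filter, with 0 to 5 counts per library.

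**Figure D2:**
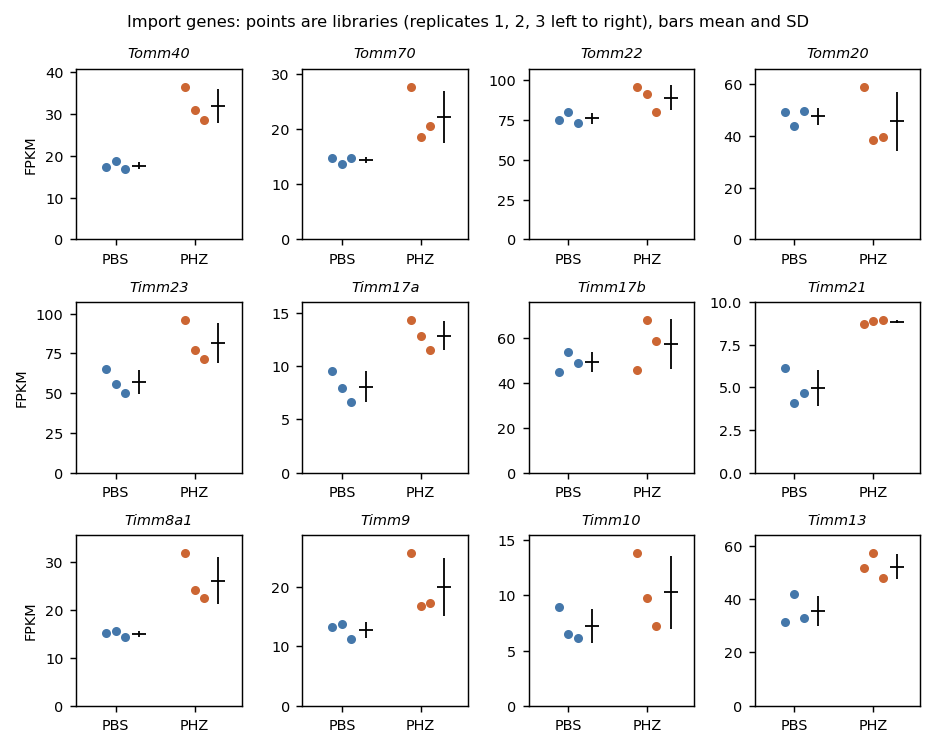
FPKM of 12 import genes in each library, with PBS in blue and PHZ in orange, replicates 1 to 3 from left to right and the mean and SD of 3 libraries as a black bar. The Tomm40 values run from 16.9 to 18.7 FPKM in PBS and from 28.5 to 36.4 FPKM in PHZ, while Tomm20 and Timm17b overlap between groups.

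Promoter windows from RefSeq (build GRCr8), matched by gene ID, were found for 52 of the 59 genes. The 250 bases before the annotated start were searched on both strands for 4 motifs, which did not overlap each other at any match in these genes. An E-box, CACGTG, bound by MYC and USF proteins, was present in 4 of the 52 (7.69%), against 5.59% of all 33469 windows and 8.29% of those of tested genes. The NRF1 core (GCGC, any 2 bases, then GCGC) was present in 4 of the 52 (7.69%), against 4.80% of all windows and 11.4% of those of tested genes. The ETS motif ACTTCCGG, of which GABPA is a known binder at genes for mitochondrial proteins, was present in 8 of the 52 (15.4%), against 3.10% of all windows and 7.42% of those of tested genes. It stood in 2 of the 11 windows of genes that rose and in 4 of the 33 of tested genes that were not called. The GATA motif AGATAA was present in 4 of the 52 (7.69%), against 10.3% of all windows and 5.81% of those of tested genes. The GATA motif stood in 1 of the 11 windows of genes that rose and in 2 of the 33 of tested genes not called. For the E-box and for the NRF1 core these counts were 1 of 11 and 3 of 33 each. These 52 windows include members that were not tested. In the 45 windows of tested members the shares were 8.89% for the E-box, 8.89% for NRF1, 13.3% for ETS and 6.67% for GATA. The stretches that follow show the ETS motif upstream of genes that rose (Tomm70, Timm23) and of genes that were not called (Tomm20, Timm10b), the E-box of Timm8a1 and the GATA motif of Slc25a4, each written 5′ to 3′ on the gene's strand with the motif, or its reverse complement CCGGAAGT, in capitals.
Tomm70, chr11:56886332-56886393, minus strand: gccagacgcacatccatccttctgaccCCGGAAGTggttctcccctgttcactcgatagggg
Timm23, chr16:7442673-7442734, minus strand: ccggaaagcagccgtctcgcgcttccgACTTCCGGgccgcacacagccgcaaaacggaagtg
Tomm20, chr19:71832421-71832475, minus strand: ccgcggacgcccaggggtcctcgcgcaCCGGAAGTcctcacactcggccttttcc
Timm10b, chr1:169392280-169392341, plus strand: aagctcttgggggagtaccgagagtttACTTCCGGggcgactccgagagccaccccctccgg
Timm8a1, chrX:102015470-102015529, minus strand: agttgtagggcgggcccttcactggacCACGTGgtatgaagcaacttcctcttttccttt
Slc25a4, chr16:52805271-52805325, plus strand: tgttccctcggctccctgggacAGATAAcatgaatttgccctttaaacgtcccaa

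A match describes letters in a window and is not evidence of binding.

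Of 6 tested carriers of adenine nucleotides and phosphate 2 rose and none fell, and the class held the most abundant carriers after Slc25a39. Slc25a4 encodes ANT1, an adenine nucleotide translocase, and had 49.8, 47.9 and 42.4 FPKM in PBS and 97.6, 73.5 and 70.2 FPKM in PHZ libraries. The groups did not overlap, with a 1.78-fold rise (log2 0.83 ± 0.13 SE, edgeR adjusted p = 0.0212). Slc25a3, the phosphate carrier, had 137, 118 and 114 FPKM in PBS and 209, 175 and 161 FPKM in PHZ libraries, 1.53-fold higher (edgeR adjusted p = 0.0374). Slc25a5, which encodes the more abundant translocase ANT2, had 180, 149 and 141 FPKM in PBS and 284, 192 and 186 FPKM in PHZ libraries. Its groups did not overlap, with PBS replicate 1 close to the lower PHZ values, and it was not called (edgeR adjusted p = 0.0767). The ATP-Mg/phosphate carriers had estimates of either sign and no call. Slc25a25 had 5.6 to 8.71 FPKM in PBS and 9.18 to 10.7 FPKM in PHZ libraries, Slc25a24 had 8.72 ± 1.24 and 6.30 ± 1.74 FPKM, and Slc25a23 had 2.11 ± 0.375 and 1.19 ± 0.527 FPKM (SD, n = 3).

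Of 10 carriers of pyrimidine nucleotides, cofactors, glutathione and iron, 2 rose and 1 fell. Slc25a32, the carrier that brings folate and FAD into mitochondria, had 2.74, 3.33 and 2.60 FPKM in PBS and 6.78, 6.58 and 5.33 FPKM in PHZ libraries. That was a 2.25-fold rise without overlap (log2 1.17 ± 0.20 SE, edgeR adjusted p = 0.0226). Slc25a16, a carrier linked to coenzyme A, had the smallest rise among the called members, from 10.4, 10.7 and 9.93 FPKM in PBS to 14.2, 12.8 and 14.7 FPKM in PHZ libraries, 1.39-fold (edgeR adjusted p = 0.0413). Slc25a28 encodes mitoferrin 2, the iron importer of mitochondria in tissues other than the erythroid lineage, and was the called member that fell. It had 26.8, 40.3 and 31.1 FPKM in PBS and 22.2, 19.7 and 21.4 FPKM in PHZ libraries, 1.57-fold lower (edgeR adjusted p = 0.046). PBS replicate 2 was the highest, and all PHZ values lay under the PBS values.

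Slc25a39, the importer of glutathione into mitochondria, was the most abundant member in both groups. It had 185, 143 and 223 FPKM in PBS and 225, 412 and 322 FPKM in PHZ libraries. PHZ replicate 1 was level with PBS replicate 3 in FPKM, the groups overlapped in CPM, and the estimate of 1.84-fold was not called (log2 0.88 ± 0.34 SE, edgeR adjusted p = 0.121). Its paralog Slc25a40 was low, at 4.14 ± 1.03 FPKM in PBS and 3.41 ± 0.52 FPKM in PHZ libraries (SD, n = 3). Others not called in this class were the peroxisomal carrier Slc25a17 (20.5 ± 2.51 and 22.6 ± 2.23 FPKM) and the coenzyme A carrier Slc25a42 (4.56 ± 0.92 and 6.00 ± 0.874 FPKM). The pyrimidine nucleotide carrier Slc25a33 and the S-adenosylmethionine carrier Slc25a26 had means under 3 FPKM in both groups.

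**Figure D3:**
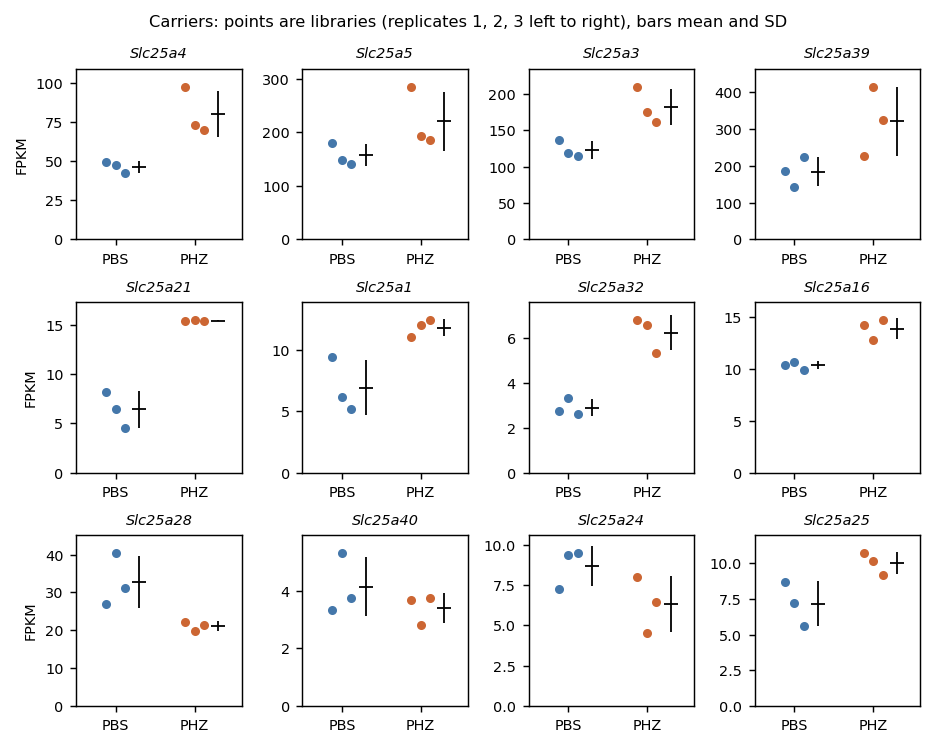
FPKM of 12 carriers in each library, with PBS in blue and PHZ in orange, replicates 1 to 3 from left to right and the mean and SD of 3 libraries as a black bar. Slc25a4, Slc25a21 and Slc25a32 show separate groups, Slc25a28 is lower in PHZ (19.7 to 22.2 FPKM against 26.8 to 40.3), and Slc25a39 spreads from 225 to 412 FPKM within PHZ.

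All 5 carriers of carboxylates and acylcarnitines had a positive estimate, with a median log2 fold change of 0.56, and 1 rose. Slc25a21, the 2-oxodicarboxylate carrier of lysine and tryptophan breakdown, had 8.25, 6.50 and 4.52 FPKM in PBS and 15.4, 15.5 and 15.4 FPKM in PHZ libraries. The PHZ values were nearly equal, the PBS values spread more widely, and the 2.48-fold rise was the largest among the called members (log2 1.31 ± 0.22 SE, edgeR adjusted p = 0.0224). Slc25a1, the citrate carrier, had 9.41, 6.17 and 5.17 FPKM in PBS and 11, 12 and 12.4 FPKM in PHZ libraries, without overlap (edgeR adjusted p = 0.0639). Without PBS replicate 1, its highest PBS library, it was called (edgeR adjusted p = 0.0341), and over all its alternatives the adjusted p ran from 0.0207, with DESeq2, to 0.48. Slc25a11, the oxoglutarate carrier of the malate-aspartate shuttle, was the most abundant of the class, at 46.0, 43.2 and 36.1 FPKM in PBS and 53.1, 58.6 and 52.0 FPKM in PHZ libraries (edgeR adjusted p = 0.0934). Slc25a20, which carries acylcarnitines for fatty acid oxidation, had 16.8 ± 2.09 and 23.8 ± 2.14 FPKM, also without overlap. The dicarboxylate carrier Slc25a10 overlapped, at 11.6 ± 2.27 and 13.8 ± 0.721 FPKM (SD, n = 3).

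No amino acid carrier among the members was called, and all of these were under 10 FPKM in each library. Slc25a12 and Slc25a13 had no entry under these symbols, so the class is incomplete here. Among the 5 tested, Slc25a44, the branched-chain amino acid carrier, was the most abundant, at 5.65, 6.53 and 5.57 FPKM in PBS and 5.49, 6.23 and 6.17 FPKM in PHZ libraries. The groups overlapped, with a log2 fold change of 0.06 ± 0.16 (SE). The ornithine carrier Slc25a15 had 3.59 ± 0.361 and 3.84 ± 0.327 FPKM (SD, n = 3), and the glutamate carrier Slc25a22 1.06 ± 0.626 and 1.24 ± 0.345 FPKM. Slc25a2, a second ornithine carrier, had 1.00, 1.34 and 2.56 FPKM in PBS and 0.85, 0.33 and 0.60 FPKM in PHZ libraries, without overlap (log2 -1.45 ± 0.55 SE, edgeR adjusted p = 0.116). Slc25a29, a carrier of basic amino acids, had 0.47, 0.36 and 0.46 FPKM in PBS and 0.27, 0.17 and 0.24 FPKM in PHZ libraries, without overlap (log2 -0.87 ± 0.43 SE, edgeR adjusted p = 0.202).

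Among 6 tested carriers related to uncoupling proteins or without a settled substrate, 4 had a negative estimate. Slc25a46, an outer membrane protein of mitochondrial fission, was the most abundant, at 13.7, 10.1 and 9.74 FPKM in PBS and 16.6, 13.7 and 14.3 FPKM in PHZ libraries (edgeR adjusted p = 0.0832). Slc25a53 was under 1 FPKM in every library, at 0.65, 0.42 and 0.78 FPKM in PBS and 0.23, 0 and 0.26 FPKM in PHZ libraries (log2 -1.93 ± 0.96 SE, edgeR adjusted p = 0.204). Slc25a14 had 3.87 ± 0.527 and 2.37 ± 0.513 FPKM and Slc25a45 1.67 ± 0.465 and 0.957 ± 0.0709 FPKM (SD, n = 3), without overlap. Slc25a30 and Slc25a35 overlapped. The carriers Slc25a18, Slc25a27, Slc25a34, Slc25a41, Slc25a47 and Slc25a54 did not pass the filter, with 0 to 6 counts per library. A count of 0 allows up to 3 counts, or 0.154 to 0.227 CPM by library, for counting error only.

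Members were also counted by level. Of 27 members with a mean of at least 10 FPKM over the 6 libraries, 10 rose and 1 fell, with a median log2 fold change of 0.56. Among all 6033 tested genes at that level 16.0% rose, and their median was 0.14. Of 25 tested members under it 2 rose and none fell, with a median of 0.06, and among all 7514 tested genes under it 3.39% rose and 3.78% fell, with a median of -0.21. Standard errors were larger at low level, with a median of 0.26 on the log2 scale under 10 FPKM and 0.16 above. No one library led throughout: PHZ replicate 1 was the highest PHZ library in 9 of 20 import genes and 9 of 32 carriers, and PHZ replicate 2 in 10 and 18, as TMM-scaled CPM.

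**Figure D4:**
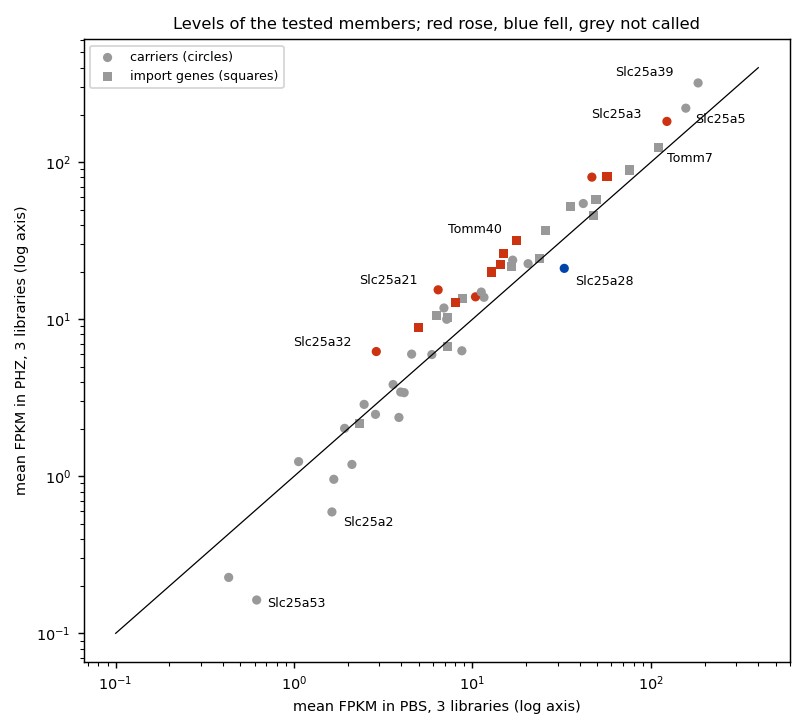
Mean FPKM of 51 of the 52 tested members in PBS (horizontal) and PHZ (vertical), both on log axes, with carriers as circles, import genes as squares, genes that rose in red, the one that fell in blue and equality as a line. Most members over 10 FPKM lie above the line, Slc25a28 lies below it, and members under 3 FPKM lie on both sides.

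The balance between related genes was compared in 11 usable pairs of 14 listed, as the log2 ratio of their CPM in each library. In 5 pairs the groups did not overlap, in CPM and in FPKM. With 3 libraries against 3 the exact two-sided permutation test cannot go below p = 0.1, which these 5 reached, and the adjusted value over the 11 pairs was 0.22, so none passed. Tomm40 stood at 7.71, 7.41 and 7.62 times the FPKM of Tomm40l in PBS and at 19.3, 15.4 and 11 times in PHZ libraries, a log2 difference of 0.96. Slc25a39 stood at 55.3, 27 and 59.0 times Slc25a40 in PBS and 61.2, 147 and 86.0 times in PHZ libraries, a log2 difference of 1.13. Among the translocase genes Slc25a4 stood at 0.277, 0.321 and 0.300 times Slc25a5 in PBS and at 0.343, 0.383 and 0.378 times in PHZ libraries, a log2 difference of 0.30. Slc25a24 went from 0.837, 1.30 and 1.69 times Slc25a25 to 0.743, 0.44 and 0.7 times, a log2 difference of -1.0. Slc25a15 went from 7.38, 9.19 and 8.70 times Slc25a29 to 15.6, 20.9 and 15.7 times, a log2 difference of 0.87, with Slc25a29 under 0.5 FPKM in every library. The ratios Timm17a to Timm17b, Timm8a1 to Timm8b, Timm9 to Timm10, Tomm20 to Tomm22, Slc25a10 to Slc25a11 and Slc25a14 to Slc25a30 overlapped between groups.

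**Figure D5:**
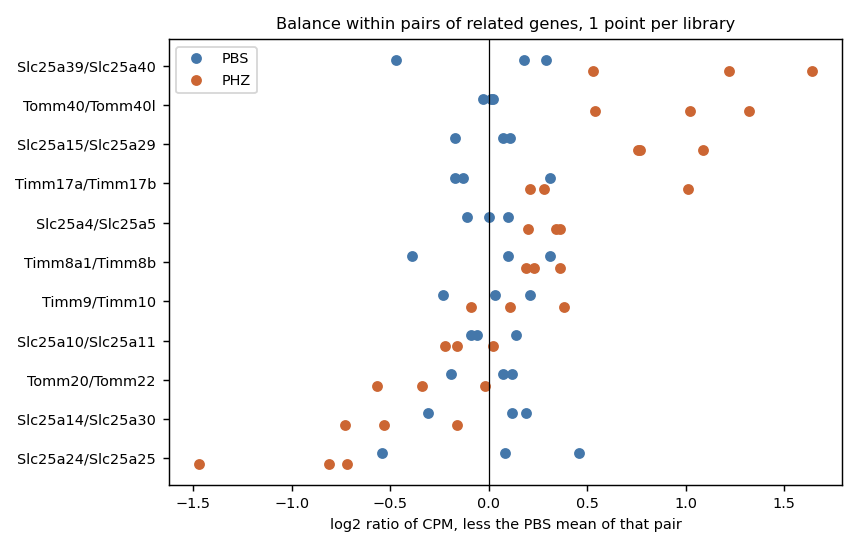
Log2 ratio of the CPM of the genes in each of 11 pairs, less that pair's PBS mean, with 1 point per library (PBS in blue, PHZ in orange). The groups do not overlap for Slc25a39/Slc25a40, Tomm40/Tomm40l, Slc25a15/Slc25a29, Slc25a4/Slc25a5 and Slc25a24/Slc25a25.

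Partners of the import machinery outside the symbol rule were taken from a list, which also holds folding, protease and prohibitin genes. Of 31 listed genes 27 were found. Of these, 12 rose, none fell and 15 were not called, with a median log2 fold change of 0.59. The rises made up 44.4%, against 8.99% of all tested genes and 16.0% of those with a mean of at least 10 FPKM. The list was chosen with earlier results of these data known, so this share is a description only. The motor chaperone Hspa9 was 1.69-fold higher (edgeR adjusted p = 0.0376), at 38.2 ± 4.66 FPKM in PBS and 63.1 ± 17.8 FPKM in PHZ libraries (SD, n = 3). The folding chaperonin genes Hspd1 and Hspe1 were 2.20-fold and 2.05-fold higher. Samm50, which inserts barrel proteins such as the TOM channel into the outer membrane, was 1.77-fold higher (23.3 ± 4.29 and 39.4 ± 2.35 FPKM, edgeR adjusted p = 0.025). Mtch2, an outer membrane insertase related to the carriers, was 2.14-fold higher. The presequence peptidase subunit gene Pmpca was 1.65-fold higher, while its partner Pmpcb, at 50.0 ± 5.44 and 51.6 ± 7.05 FPKM, was not called (edgeR adjusted p = 0.594). Others that rose were the protease gene Lonp1 (2.29-fold), the prohibitin genes Phb (1.97-fold) and Phb2 (1.72-fold), the import oxidase gene Gfer (1.67-fold), Dnaja3 (1.67-fold) and the nucleotide exchange factor gene Grpel2 (1.59-fold). The 12 calls became 2 without PHZ replicate 2 and 0 without PBS replicate 2 or PBS replicate 3 (15 each at an unadjusted p under 0.05 in edgeR). Of all genes 1.91%, 0% and 0% were called in these fits, in that order.

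Other mitochondrial transporters were mixed, with 4 rises and 1 fall among 16 tested and a median log2 fold change of 0.22. The outer membrane channel Vdac1 was 1.70-fold higher (22.1 ± 0.949 and 36.3 ± 7.19 FPKM, SD, n = 3; edgeR adjusted p = 0.0271), Vdac3 1.61-fold, the calcium and potassium exchange factor gene Letm1 1.69-fold and the pyruvate carrier subunit gene Mpc1 1.46-fold. Sfxn2, a sideroflexin, fell (9.68 ± 1.96 and 5.90 ± 0.927 FPKM, edgeR adjusted p = 0.0426). Ucp2, itself an SLC25 carrier under another symbol, was far more abundant than any member, at 1550 ± 228 FPKM in PBS and 1820 ± 619 FPKM in PHZ libraries, and overlapped between groups (edgeR adjusted p = 0.547). These 5 calls became 1 without PHZ replicate 1 and 1 without PHZ replicate 3, when 12.6% and 4.10% of all genes were called. They became 0 without PBS replicate 2, PBS replicate 3 or PHZ replicate 2, with 5, 5 and 6 genes at an unadjusted p under 0.05 in edgeR. Of all genes 0%, 0% and 1.91% were called in those fits.

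Some family members sit in the files under other names and so fall outside the rule. Slc25a51, the NAD carrier, is listed as Mcart1, with 4.73 ± 1.69 FPKM in PBS and 5.82 ± 1.55 FPKM in PHZ libraries (SD, n = 3), and was not called (edgeR adjusted p = 0.50). A numbered locus also described as Slc25a51 had 15.2 ± 2.64 FPKM in PBS and 23.1 ± 3.66 FPKM in PHZ libraries, without overlap and without a call (edgeR adjusted p = 0.0826). The authors also numbered 8 loci whose description names a carrier or import subunit, 4 of them as Slc25a36, and 1 of the 8 was called. That locus, described as the TIM23 subunit TIM50, was 1.65-fold higher, at 19.5, 20.6 and 16.4 FPKM in PBS and 33.0, 29.3 and 27.1 FPKM in PHZ libraries (edgeR adjusted p = 0.0232). The RefSeq table lists pseudogenes for 15 of the 59 genes, among them 9 for Slc25a5, 8 for Slc25a39, 8 for Timm23 and 4 for Tomm7. Reads shared between a gene and such copies may have been split by the counting, and the values of these genes are uncertain to that extent. In the authors' deposited table Slc25a21 and Slc25a32 are marked up and Slc25a2 is marked down, and no other member is marked. In the authors' deposited table every marked gene has a log2 ratio of at least 1.0 in size, which leaves out most of the members called here.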

How the data were processed

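Each library's table from the authors holds, per the file headers, expected counts, which can be fractional, and FPKM for each gene listed. Their deposited comparison adds group means, the log2 ratio (PHZ to PBS) and a score called Probability, made by the authors. The submitters' processing notes name HISAT, GATK, RSEM and rn6; their roles and versions are not stated there. Genes unlisted in a library were set to 0, and expected counts were rounded. Treatment, as the only term, was tested by quasi-likelihood in edgeR 4.0.16 (R 4.3.3; filterByExpr, TMM scaling, robust glmQLFit) over 13547 genes with Benjamini-Hochberg adjustment, called under 0.05, with 4 residual degrees of freedom. The standard error was taken as the size of the log2 fold change divided by the root of the F statistic. Fold changes come from counts, so they can differ from ratios of FPKM. Pair ratios used a prior count of 2. Alternatives were DESeq2 1.42.0, limma 3.58.1, other scaling, no filter, a sex or replicate term and each library left out; leaving out the libraries that go against their sex label was added after seeing the data. Members may all be named, except 1 tested gene that enters the counts and is not reported by itself here; values in every library are given for called members, the most abundant of each role class and the 5 largest estimates that were not called. Members, roles and lists were chosen with earlier results of these data known. The test script was tested on simulated data.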

Additional observations from a re-analysis of the deposited data

How the results depend on the processing

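Counts of calls depended on the setting, and most fold changes kept their direction. Over the 13 alternatives and the 52 tested members, 12 of the estimates changed sign, 548 kept direction and call, 104 lost a call and 12 gained one. Most of the 548 belong to members that were called neither in the main fit nor in the alternative. The 104 lost calls all belong to the 13 called members, and among these, lost calls outnumbered kept ones. Among the called members Tomm40 kept its call most often, in 9 of the 13 alternatives, and Timm9 least often, in 1. Slc25a16, Slc25a28, Timm21 and Timm23 kept theirs in 3 each. DESeq2 called 3421 genes, 21 members and 11 carriers. Sex as labelled as a covariate gave 928 genes, 7 members, 3 carriers, 4 import genes and 0 other transporters (7 at an unadjusted p under 0.05 in edgeR). That label goes against Y-linked transcripts in 3 libraries, so the fit cannot adjust for sex. Limma on log2(FPKM + 1) gave 6 members, 3 carriers, 3 import genes and 1 other transporter. Upper-quartile scaling gave 4 import genes and 2 other transporters, and no low-count filter gave 3 other transporters. Leaving out each library in turn gave 0 to 1744 genes, 0 to 12 members, 0 to 7 carriers, 0 to 5 import genes, 0 to 13 import partners and 0 to 5 other transporters, and 5 to 7 separate pairs. Without the 3 libraries against their sex label edgeR called 0 genes, members, carriers, import genes, import partners and other transporters (1480 genes, 6 members, 8 partners and 1 other transporter at an unadjusted p under 0.05). That fit has 1 PBS library, assumed to vary like the 2 PHZ libraries, and 1 residual degree of freedom, so its lack of calls says nothing about stability. Replicate numbers did not pair the libraries: deviations correlated at 0.213, 0.057 and 0.005 for numbers 1, 2 and 3, and only number 1 correlated best with itself. With the replicate block edgeR called 0 genes and 0 members (4641 and 24 at an unadjusted p under 0.05), with 0 carriers, 0 import genes, 0 import partners and 0 other transporters. The cause was not tested. Sign changes, all in members called under no alternative, were Slc25a15 at -0.08 and Slc25a26 at -0.01 (log2) without the libraries against their sex label. Leaving out single libraries gave ranges that crossed 0 for Slc25a22 (-0.01 to 0.89), Slc25a26 (-0.15 to 0.37), Slc25a33 (-0.80 to 0.14), Slc25a44 (-0.05 to 0.18), Timm29 (-0.16 to 0.01), Tomm20 (-0.16 to 0.07) and Tomm40l (-0.18 to 0.10). Of the 59 members 7 had too few counts to be tested.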
